A study of Mus musculus with 8 samples.

Results

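The genes described here are 32 markers of the fields of the mouse hippocampus and of dentate granule cells, the principal neurons of the dentate gyrus. They came as a list of names with no threshold on a measured value: 12 mark dentate granule cells, 4 mark CA1, 5 mark CA2, 3 mark CA3, and 8 mark several fields or carry no single field. All 32 had a row among the 24421 genes of the count tables, and all 32 were among the 15999 genes with enough counts to be tested.

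The hippocampus is built as a chain of fields. Granule cells of the dentate gyrus send mossy fibres to CA3 pyramidal cells, CA3 projects to CA1, and the small CA2 field lies between them. Granule cells differ from pyramidal cells in when they are made: most arise around and after birth, and a neurogenic niche in the dentate gyrus persists into adult life. Many of the genes that tell the fields apart in adult tissue encode secreted synaptic proteins, calcium-binding proteins, channels and enzymes, and a good part of them switch on while neurons mature.

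RNA-seq was made from hippocampus of C57BL/6J wildtype mice labelled male. In the IUGR groups (intrauterine growth restriction) the dam had been injected intraperitoneally with dexamethasone, a synthetic glucocorticoid, at 1 mg/kg per day from 14.5 days post coitum for 5 days, and in the NS groups (normal saline) the dam received the same volume of saline. The 4 groups were IUGR at week 8, NS at week 8, IUGR at postnatal day 3 and NS at postnatal day 3, with 2 libraries each. Nothing in the labels says that libraries of a group came from separate animals or litters, so p-values measure only the spread between these libraries. At week 8 that spread may be technical. At day 3 the sex-linked counts given below differ between the 2 libraries of each group, so these did not come from the same animal.

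Total counts ran from 13030277 to 18993050 per library, and levels are CPM, the count per 1000000 counts of the library, given for replicate 1 and then replicate 2 of a group. Libraries stood apart in 2 ways. At day 3, replicate 2 held 5130 Xist counts in IUGR and 4998 in NS, with 74 and 34 counts summed over the Y-linked Ddx3y, Uty, Kdm5d and Eif2s3y, which goes against the label male; replicate 1 held 81 and 4 Xist counts and 5364 and 3783 Y-linked counts. At week 8, replicate 1 held 959735 counts of Rpph1, the RNA of ribonuclease P, in IUGR and 1002307 in NS, whereas replicate 2 held 2 and 0. Choroid plexus and other neighbouring tissue also varied between libraries. Ttr, the transthyretin of choroid plexus epithelium, had 44.2 and 22.2 CPM in IUGR and 6464 and 47.4 CPM in NS at week 8, and 3107 and 413 CPM in IUGR and 63.1 and 6047 CPM in NS at day 3. The 5 choroid plexus genes summed to 68.3 and 62.7 CPM in IUGR and 6690 and 78.6 CPM in NS at week 8, and to 3179 and 432 CPM in IUGR and 77.3 and 6184 CPM in NS at day 3. The 5 meninges and fibroblast genes summed to 221 and 131 CPM in IUGR and 485 and 117 CPM in NS at week 8, and to 315 and 319 CPM in IUGR and 586 and 553 CPM in NS at day 3, where each of the 5 was lower in IUGR without overlap. The 5 thalamus and habenula genes summed to 143 and 92.6 CPM in IUGR and 157 and 88.3 CPM in NS at week 8, and to 121 and 350 CPM in IUGR and 174 and 143 CPM in NS at day 3. The part of these tissues in the results below was not tested. Prox1, a transcription factor of granule cells, had 34.1 to 66.6 CPM at week 8 and 10.8 to 27.6 CPM at day 3, and no member was at 0 in any library. At day 3 Prox1 was highest in IUGR replicate 2, which also had the highest sum of thalamus and habenula genes. Prox1 alone therefore does not vouch for the dissection at that age. Exons of C1ql3, Dsp, Maml2, Dgkh, Man1a, Pcp4, Amigo2, Grik4, Cabp7 and Zbtb20 overlap those of another annotated gene, and their counts may include reads of that gene.

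**Figure D1:**
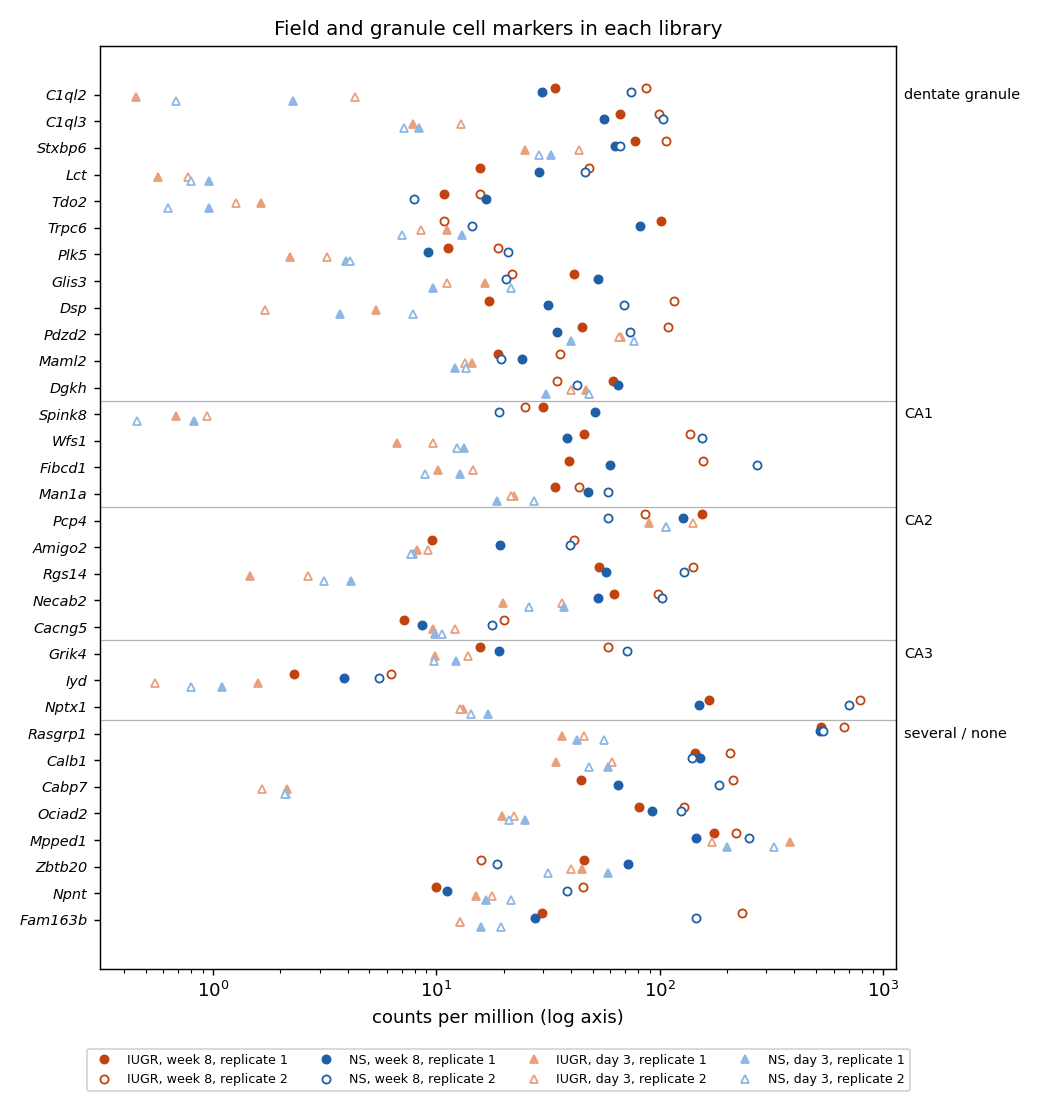
Level of each of the 32 genes in each of the 8 libraries, in CPM on a log axis, with genes down the page by field; filled symbols are replicate 1 and open symbols replicate 2. Week 8 circles lie to the right of day 3 triangles for most genes, and IUGR and NS symbols of an age are interspersed.

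The comparison of week 8 with day 3 asks how far each field's markers moved over this span of development. Of the 32 genes, 15 rose and 0 fell in IUGR (edgeR quasi-likelihood test, Benjamini-Hochberg adjusted p under 0.05 over all genes tested), where 9.34% of all genes tested rose and 7.48% fell. In NS, 14 rose and 0 fell, where 7.7% of all genes rose and 6.44% fell. The median log2 fold change of the 32 genes was 2.26 in IUGR and 2.17 in NS, beside 0.02 and 0.04 over all genes tested. It was 1.89 in IUGR and 1.66 in NS for 5 pan-neuronal genes, of which Snap25 and Syt1 rose and Tubb3 fell in each treatment. For 5 GABAergic genes it was 0.94 in IUGR and 1.02 in NS. The rise is therefore not shown to be particular to field markers. In tissue RNA, more cells of a type and more RNA per cell cannot be told apart. In each treatment the CPM of 24 of the 32 genes did not overlap between ages and was higher at week 8, beside 28.1% of all genes in IUGR and 29.2% in NS, and 0 were lower without overlap, beside 37.9% and 32.6%.

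These counts depended on the libraries in the fit, and the size of the rises did so less. With any 1 library left out, the median log2 fold change lay between 1.69 and 2.53 in IUGR and between 1.56 and 2.43 in NS. Without a day 3 library its group held 1 library. The spread then came from the other groups, including the week 8 replicates, which lay farther apart. Without IUGR day 3 replicate 1 or without IUGR day 3 replicate 2, 1 of the 32 genes, Rasgrp1, was called in IUGR, where 92 and 157 of all genes tested were called. Without NS day 3 replicate 1 or without NS day 3 replicate 2, 0 of the 32 were called in NS by edgeR, with 18 and 17 at an unadjusted p under 0.05, where 69 and 51 of all genes were called. The loss was thus one of all genes and not of these markers alone. Shares of all genes at an unadjusted p under 0.05 are not given for these fits or the next. In the edgeR fit of all libraries they were 34.3% in IUGR and 32.3% in NS. The unadjusted counts therefore say nothing of the markers in particular. Without both day 3 libraries whose Xist counts go against their label, 0 genes were called in IUGR and 0 in NS, with 15 and 13 at an unadjusted p under 0.05, where 0 of all genes tested were called.

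**Figure D2:**
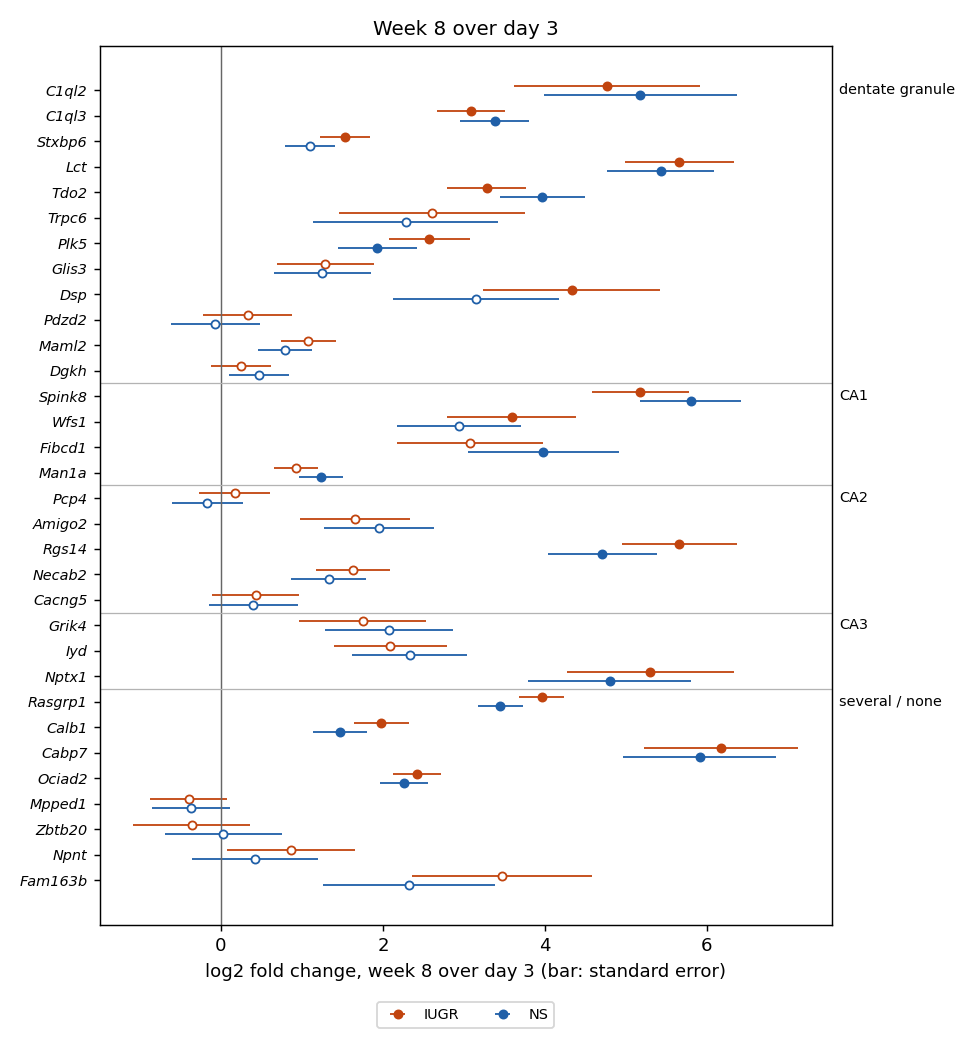
Log2 fold change of week 8 over day 3 for each gene in IUGR (upper of each pair) and NS (lower), with its standard error; filled points passed an adjusted p of 0.05 in edgeR. Cabp7, at 6.18 in IUGR and 5.91 in NS, lies farthest right, and Mpped1, Zbtb20 and Pcp4 lie near 0.

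Among the 12 dentate granule genes, 7 rose in IUGR and 5 in NS, and the median log2 fold change was 2.59 in IUGR and 2.11 in NS. C1ql2 encodes a secreted C1q-family protein that granule cells release at mossy fibre synapses. Its level was 33.8 and 86.5 CPM at week 8 and 0.454 and 4.3 CPM at day 3 in IUGR. In NS it was 29.8 and 74.2 CPM at week 8 and 2.27 and 0.685 CPM at day 3. Every week 8 library exceeded every day 3 library, by 4.77 ± 1.15 on the log2 scale (SE) in IUGR (adjusted p = 0.0363) and 5.18 ± 1.19 in NS (adjusted p = 0.0357). With 1 library left out the C1ql2 difference lay between 3.92 (without IUGR day 3 replicate 1) and 7.12 (without IUGR day 3 replicate 2) in IUGR and between 4.36 (without NS week 8 replicate 2) and 6.25 (without NS day 3 replicate 1) in NS, and it was not called in any of these 4 fits. C1ql3, its close relative with the same mossy fibre release, had 66.1 and 98.7 CPM at week 8 and 7.88 and 12.9 CPM at day 3 in IUGR. The NS libraries held 56.3 and 103 CPM of C1ql3 at week 8 and 8.39 and 7.19 CPM at day 3. At day 3 a library held between 8 and 78 counts of C1ql2. The rise of C1ql3 was 3.09 ± 0.42 in IUGR and 3.38 ± 0.43 in NS (adjusted p = 0.00815 and 0.00773).

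Lct encodes lactase, best known from the intestine and also a marker of granule cells. It had 15.6 and 48 CPM at week 8 and 0.567 and 0.772 CPM at day 3 in IUGR, a log2 difference of 5.66 ± 0.67 (adjusted p = 0.0056). In NS, Lct had 28.7 and 46.1 CPM at week 8 and 0.963 and 0.799 CPM at day 3, a difference of 5.43 ± 0.66 (adjusted p = 0.00724). Its day 3 libraries held 10 to 14 counts each. Tdo2, tryptophan 2,3-dioxygenase, the enzyme that opens the kynurenine route of tryptophan breakdown, had 10.8 and 15.6 CPM at week 8 and 1.64 and 1.27 CPM at day 3 in IUGR. Tdo2 in NS had 16.7 and 7.95 CPM at week 8 and 0.963 and 0.628 CPM at day 3. The ages did not overlap in either treatment, and the rise was 3.28 ± 0.49 in IUGR and 3.97 ± 0.52 in NS (adjusted p = 0.00979 and 0.00802). Plk5, of the polo-like kinase family, rose by 2.57 ± 0.5 in IUGR and 1.93 ± 0.49 in NS (adjusted p = 0.02 and 0.0463).

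Stxbp6 (amisyn, which binds SNARE proteins) and Dsp (desmoplakin, a desmosome protein) passed in IUGR and missed the threshold in NS. Stxbp6 had 77.6 and 106 CPM at week 8 and 24.8 and 43.5 CPM at day 3 in IUGR, and 63.2 and 66.3 CPM at week 8 and 32.7 and 28.8 CPM at day 3 in NS; the log2 differences were 1.53 ± 0.31 and 1.1 ± 0.31 (adjusted p = 0.0219 and 0.0594). Dsp had 17.2 and 116 CPM at week 8 and 5.39 and 1.71 CPM at day 3 in IUGR, and 31.7 and 68.8 CPM at week 8 and 3.71 and 7.82 CPM at day 3 in NS, differences of 4.33 ± 1.09 and 3.15 ± 1.03 (adjusted p = 0.0405 and 0.0884). The test of the difference between the treatments passed for neither (adjusted p = 1 for each). The other 5 dentate genes were not called in either treatment. Trpc6, a cation channel, had log2 differences of 2.61 ± 1.15 in IUGR and 2.28 ± 1.14 in NS, with replicates of week 8 far apart. Differences for Glis3 (a zinc-finger transcription factor) and Maml2 (a Notch coactivator) lay between 0.79 and 1.29. Pdzd2, a PDZ-domain protein, and Dgkh, diacylglycerol kinase eta, lay between -0.07 and 0.47.

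Promoter sequence is shown for 4 of the called genes that rose in both treatments, chosen to span the base composition of their promoters. Each run gives the 150 bases before the RefSeq gene start on GRCm38.p6, the assembly also called mm10, 5′ to 3′ on the gene's strand. They lie at chr1:120340432-120340581 (plus strand) for C1ql2, chr1:128328319-128328468 (minus) for Lct, chr3:81975729-81975878 (minus) for Tdo2 and chr11:4747180-4747329 (minus) for Cabp7. Capitals mark matches, on either strand, to the motifs searched. These were CCGCCC, the GC box; CCAAT, the CAAT box; TATAAA, the TATA box; and TGACGTCA, the cyclic AMP response element.
C1ql2: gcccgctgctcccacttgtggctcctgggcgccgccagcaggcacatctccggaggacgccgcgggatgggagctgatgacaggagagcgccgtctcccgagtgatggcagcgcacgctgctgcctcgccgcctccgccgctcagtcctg
Lct: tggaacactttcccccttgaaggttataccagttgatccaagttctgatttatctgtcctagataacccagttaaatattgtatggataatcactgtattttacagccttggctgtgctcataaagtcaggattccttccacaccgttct
Tdo2: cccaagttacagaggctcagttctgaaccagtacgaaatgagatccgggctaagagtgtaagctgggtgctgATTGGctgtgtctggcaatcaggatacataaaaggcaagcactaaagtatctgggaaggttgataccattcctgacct
Cabp7: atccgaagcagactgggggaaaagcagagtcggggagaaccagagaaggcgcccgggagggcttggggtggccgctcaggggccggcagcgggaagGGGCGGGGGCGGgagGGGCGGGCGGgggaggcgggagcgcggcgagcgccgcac
G and C made up 72% of the C1ql2 window, 40% of the Lct window, 47.3% of the Tdo2 window and 76.7% of the Cabp7 window. The Cabp7 window held 4 partly overlapping GC boxes, the Tdo2 window a CCAAT match 78 bases before the start, and the other 2 windows none of these letters. RefSeq windows were found for 28 of the 32 genes, and not for Spink8, Rgs14, Nptx1 and Calb1. Among their 34 windows 15 held CCGCCC and 8 held CCAAT, beside 28.6% and 24.5% of 32851 windows of all genes. TATAAA was in 2 member windows, those of Iyd and Ociad2, beside 7.57% of all. TGACGTCA was in 0 member windows, beside 1.36% of all.

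The 4 CA1 genes had the highest median rise of the fields, 3.34 in IUGR and 3.46 in NS on the log2 scale; differences between fields were not tested. Spink8, a Kazal-type protease inhibitor, had 30 and 25 CPM at week 8 and 0.68 and 0.937 CPM at day 3 in IUGR. In NS, Spink8 had 51.5 and 19 CPM at week 8 and 0.825 and 0.457 CPM at day 3. The ages were far apart in both treatments, with a rise of 5.18 ± 0.6 in IUGR and 5.8 ± 0.62 in NS (adjusted p = 0.00528 and 0.00537). Wfs1 (wolframin, a membrane protein of the endoplasmic reticulum) had 45.8 and 136 CPM at week 8 and 6.63 and 9.7 CPM at day 3 in IUGR, a rise of 3.59 ± 0.8 (adjusted p = 0.0286). The NS libraries held 38.6 and 154 CPM of Wfs1 at week 8 and 13.3 and 12.4 CPM at day 3, a difference of 2.94 ± 0.77 that missed the threshold (adjusted p = 0.051).

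Fibcd1, a chitin-binding membrane receptor, had 39.1 and 156 CPM at week 8 and 10.2 and 14.6 CPM at day 3 in IUGR, a difference of 3.08 ± 0.9 (adjusted p = 0.0606). In NS it had 59.7 and 271 CPM at week 8 and 12.7 and 8.91 CPM at day 3, a rise of 3.98 ± 0.93 (adjusted p = 0.0379). The week 8 replicates of Fibcd1 thus differed more from each other than either day 3 group did. Man1a, a mannosidase of N-glycan trimming, moved least of the 4, by 0.93 ± 0.27 in IUGR (adjusted p = 0.0582) and 1.24 ± 0.27 in NS (adjusted p = 0.0294).

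Of the 5 CA2 genes, Rgs14 passed the test in each treatment. Rgs14, a regulator of G-protein signalling and scaffold known for restraining plasticity at CA2 synapses, had 53.5 and 140 CPM at week 8 and 1.47 and 2.65 CPM at day 3 in IUGR, a rise of 5.66 ± 0.71 (adjusted p = 0.00635). In NS it had 57.2 and 128 CPM at week 8 and 4.13 and 3.14 CPM at day 3, a rise of 4.71 ± 0.67 (adjusted p = 0.00992). Pcp4, a small calmodulin regulator that marks CA2 in adult tissue, showed no such rise: it had 154 and 85.8 CPM at week 8 and 89.3 and 140 CPM at day 3 in IUGR, and 127 and 58.4 CPM at week 8 and 106 and 106 CPM at day 3 in NS. Its ages overlapped in both treatments (log2 differences 0.17 ± 0.44 and -0.17 ± 0.44). Necab2, a neuronal calcium-binding protein, differed by 1.63 ± 0.46 in IUGR and 1.33 ± 0.46 in NS, and the adhesion protein Amigo2 by 1.66 ± 0.68 and 1.95 ± 0.68; neither was called. The Amigo2 difference in IUGR was 0.25 without IUGR week 8 replicate 2 and 2.36, with an adjusted p of 0.0285, without IUGR week 8 replicate 1. Cacng5, an AMPA receptor auxiliary subunit, differed by 0.43 ± 0.54 and 0.4 ± 0.55.

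In CA3, Nptx1 was called in each treatment and Grik4 and Iyd in neither. Nptx1 encodes a neuronal pentraxin, a secreted protein that gathers AMPA receptors at synapses. It had 166 and 786 CPM at week 8 and 13.2 and 12.8 CPM at day 3 in IUGR, and 150 and 701 CPM at week 8 and 17 and 14.3 CPM at day 3 in NS. The day 3 libraries were close together and the week 8 replicates were far apart in each treatment; the rise was 5.3 ± 1.03 in IUGR and 4.8 ± 1.01 in NS (adjusted p = 0.0196 and 0.0277). Grik4, a kainate receptor subunit, differed by 1.75 ± 0.78 and 2.07 ± 0.79 (adjusted p = 0.166 and 0.127). Iyd, iodotyrosine deiodinase, had the lowest mean per kilobase of the 32 in each week 8 group, but not the lowest value in every library. Between ages Iyd differed by 2.09 ± 0.7 and 2.33 ± 0.71 (adjusted p = 0.0869 and 0.0757).

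Of the 8 genes of several fields or none, the same 4 were called in each treatment: Rasgrp1, Calb1, Cabp7 and Ociad2. Cabp7, a neuronal calcium-binding protein, had 44.3 and 213 CPM at week 8 and 2.15 and 1.65 CPM at day 3 in IUGR, a rise of 6.18 ± 0.95 (adjusted p = 0.0106). In NS it had 65.2 and 184 CPM at week 8 and 2.13 and 2.11 CPM at day 3, a rise of 5.91 ± 0.94 (adjusted p = 0.0133). Rasgrp1, an exchange factor that activates Ras in response to diacylglycerol, had 524 and 666 CPM at week 8 and 36.5 and 45.9 CPM at day 3 in IUGR, and 521 and 536 CPM at week 8 and 42.6 and 56.4 CPM at day 3 in NS. Its replicates lay close together at each age, and its rise had the smallest p of the 32 genes, 3.96 ± 0.28 in IUGR and 3.45 ± 0.28 in NS (adjusted p = 0.00188 and 0.00264). Ociad2 rose by 2.42 ± 0.3 and 2.26 ± 0.3 (adjusted p = 0.00648 and 0.0085). Calb1, calbindin, a calcium buffer of mature granule cells and many CA1 cells, rose by 1.98 ± 0.34 and 1.47 ± 0.33 (adjusted p = 0.0141 and 0.0343).

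Mpped1 had its highest levels at day 3, with 174 and 219 CPM at week 8 and 384 and 172 CPM at day 3 in IUGR, and 145 and 251 CPM at week 8 and 200 and 324 CPM at day 3 in NS. The ages overlapped in both treatments (log2 differences -0.4 ± 0.48 and -0.37 ± 0.48). IUGR replicate 1 and NS replicate 2, the day 3 libraries with most Mpped1, also held the most Ttr, with 3107 and 6047 CPM against 413 and 63.1 CPM in the other IUGR and NS libraries; its part in the result was not tested. Zbtb20, a transcriptional repressor needed for pyramidal cell identity, differed by -0.36 ± 0.72 and 0.03 ± 0.72, and its sign in NS changed with the scaling (-0.01 with upper-quartile factors). Npnt, nephronectin, an integrin ligand of the extracellular matrix, differed by 0.86 ± 0.79 and 0.42 ± 0.78, and Fam163b by 3.47 ± 1.11 and 2.32 ± 1.06 without being called.

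**Figure D3:**
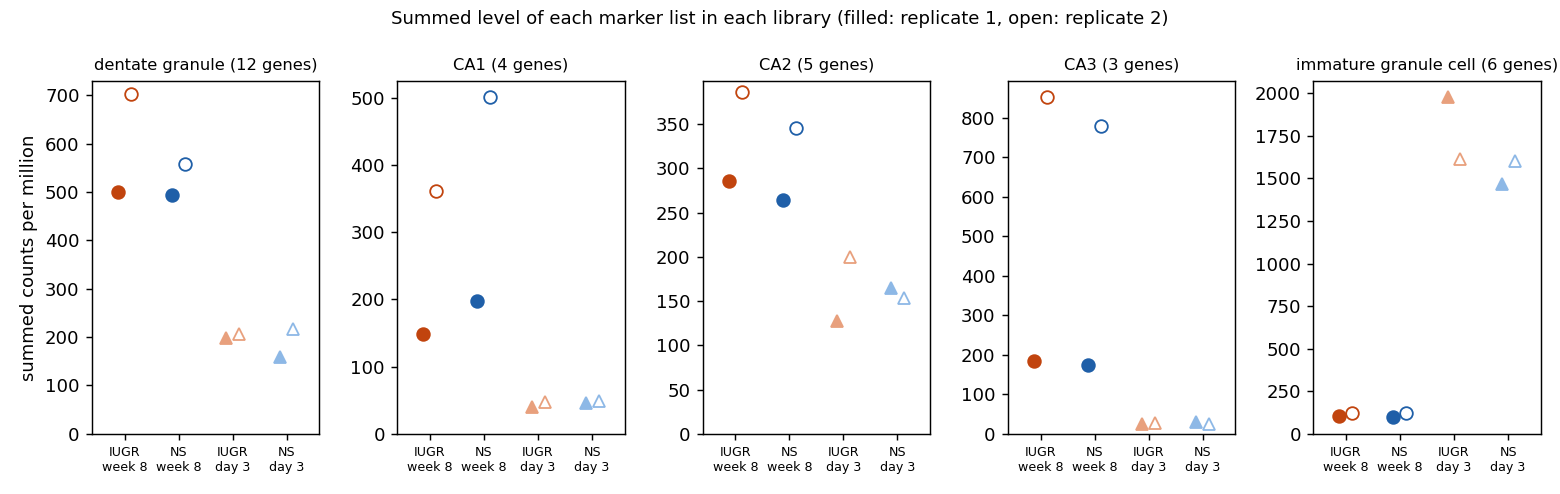
Summed CPM of each marker list in each library, with axes from 0; filled symbols are replicate 1 and open symbols replicate 2. The sums of dentate, CA1, CA2 and CA3 genes lie higher at week 8 than at day 3 in every library, and the sum of the 6 immature granule cell genes lies lower.

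Summed over its genes, each field was higher at week 8 in every library. The dentate sum was 500 and 702 CPM in IUGR and 494 and 558 CPM in NS at week 8, and 199 and 207 CPM in IUGR and 159 and 217 CPM in NS at day 3. The CA3 sum, mostly Nptx1, was 184 and 851 CPM in IUGR and 173 and 778 CPM in NS at week 8, and between 24.7 and 30.3 CPM at day 3. The sum of the 6 immature granule cell genes, mostly Dcx and Sox11, ran the other way, at 107 and 123 CPM in IUGR and 101 and 123 CPM in NS at week 8 and between 1468 and 1978 CPM at day 3. Of these, Dcx (doublecortin, of migrating neurons), Sox11 and Igfbpl1 fell in each treatment and Eomes fell in IUGR, while Calb2 and Neurod1 were not called in either; the Neurod1 difference was 0.74 ± 0.81 in IUGR and 0.35 ± 0.81 in NS. Dcx fell by 5.32 in IUGR and by 5.4 in NS on the log2 scale (adjusted p = 0.00188 and 0.00219). The genes of immature neurons in this list are expressed by other young neurons too, so their sum is not a measure of granule cells alone.

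Field markers outside the 32 moved less uniformly. Among 6 other dentate granule genes, Ahcyl2 rose (2.41 ± 0.29 in IUGR and 1.96 ± 0.29 in NS, adjusted p = 0.00611 and 0.011), 5 were not called, and Prox1 differed by 1.5 ± 0.54 and 1.57 ± 0.54. Among 7 other CA3 and pyramidal genes, Dkk3 rose by 2.4 ± 0.43 in each treatment, while Nectin3, Elavl2 and Neurod6 fell by 0.76 to 1.35. None of 4 tested other CA2 genes was called by edgeR. All 5 oligodendrocyte genes rose in each treatment, with a summed level of 3742 and 5133 CPM in IUGR and 4430 and 5024 CPM in NS at week 8 and 55.7 to 74.4 CPM at day 3. The part of this change in the members' CPM was not tested.

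Levels between genes were compared per kilobase of the deposited gene length. At week 8, Pcp4, Cabp7, Rasgrp1 and Nptx1 had the highest means of the 32, but their order differed between replicates. Pcp4 had 239 and 134 CPM per kilobase in IUGR and 198 and 91.1 in NS, and Cabp7 had 63.4 and 305 in IUGR and 93.3 and 263 in NS. Rasgrp1 had 103 and 130 in IUGR and 102 and 105 in NS, and Nptx1 had 31.4 and 149 in IUGR and 28.5 and 133 in NS. Pcp4 was thus the highest of these 4 in replicate 1, and Cabp7 in replicate 2. At day 3, Pcp4 led with a mean of 178 CPM per kilobase in IUGR and 165 in NS, followed by Mpped1 (85.4 and 80.5), Calb1 (16.7 and 18.6) and Necab2 (14.2 and 16). At that age Cabp7 stood at rank 17 in IUGR and 16 in NS. Lct was the lowest of the 32 at day 3, with 0.109 CPM per kilobase in IUGR and 0.143 in NS.

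The comparison of IUGR with NS asks whether prenatal dexamethasone left a difference in these markers. At week 8, 0 of the 32 genes were called by edgeR, where 0% of all genes tested were called, and 0 of the 32 had an unadjusted p under 0.05, beside 1.01% of all genes. DESeq2 and limma voom on all libraries also called 0 of the 32. The median log2 fold change of the 32 genes was 0.12, within a range of -0.69 to 0.68, beside 0.02 over all genes. It rested on single libraries: without IUGR replicate 2 it was -0.35, without NS replicate 1 it was -0.26, and without NS replicate 2 it was 0.58.

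**Figure D4:**
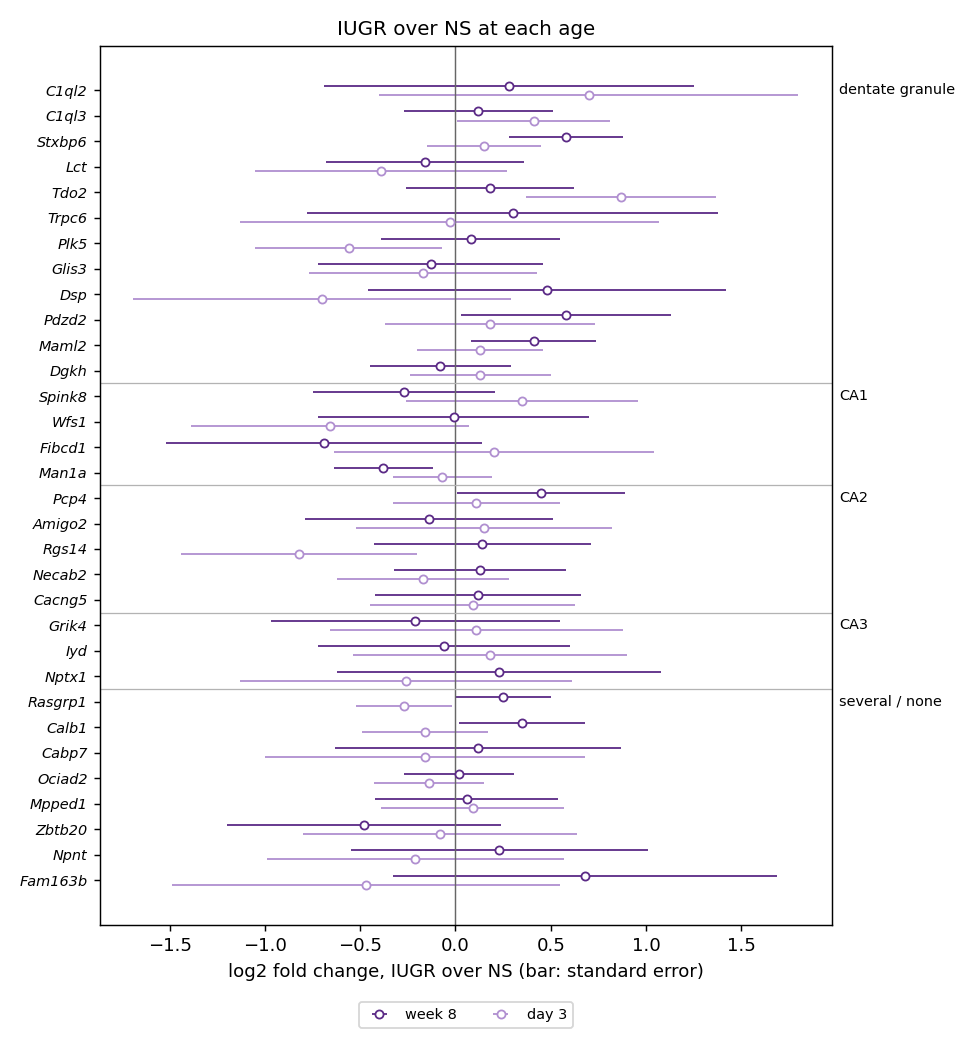
Log2 fold change of IUGR over NS for each gene at week 8 (upper of each pair) and day 3 (lower), with its standard error. All points are open because none passed an adjusted p of 0.05, and they lie between -0.82 and 0.87.

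Stxbp6 had the smallest p at week 8, with 77.6 and 106 CPM in IUGR and 63.2 and 66.3 CPM in NS, a log2 difference of 0.58 ± 0.3 (unadjusted p = 0.102, adjusted p = 1 in edgeR). It was the only one of the 32 whose IUGR libraries were both above both NS libraries, beside 4.08% of all genes. Man1a was the only one with both IUGR libraries below, beside 9.01% of all genes, with 34 and 43.3 CPM in IUGR and 47.8 and 58.3 CPM in NS and a difference of -0.38 ± 0.26 (adjusted p = 1 in edgeR). For the other 30 genes the libraries of the groups overlapped. In both groups replicate 2 exceeded replicate 1 for 23 of the 32 genes and lay below it for 6, in TMM-scaled CPM. Over the 15999 genes tested these counts were 6439 and 6588. A replicate difference shared by the groups can make them overlap whether or not they differ, so overlap is weak evidence of likeness. Calb1, whose protein is often used as a sign of granule cell maturity, had 144 and 206 CPM in IUGR and 152 and 139 CPM in NS, a difference of 0.35 ± 0.33. Maml2 had 18.9 and 35.8 CPM in IUGR and 24.1 and 19.4 CPM in NS, a difference of 0.41 ± 0.33. Pdzd2 had 44.8 and 109 CPM in IUGR and 34.5 and 73.6 CPM in NS, a difference of 0.58 ± 0.55. For both genes the IUGR replicates lay farther apart than the group means. Pcp4 had 154 and 85.8 CPM in IUGR and 127 and 58.4 CPM in NS, with overlapping groups, and differed by 0.45 ± 0.44. C1ql2 differed by 0.28 ± 0.97 and C1ql3 by 0.12 ± 0.39. These standard errors leave room for sizeable differences in either direction, so the groups are not shown to be alike.

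At day 3, 0 of the 32 genes were called by edgeR, where 0% of all genes tested were called, and 0 of the 32 had an unadjusted p under 0.05, beside 0.6% of all genes. DESeq2 and limma voom on all libraries called 0 of the 32, and DESeq2 on the day 3 libraries alone called 65 genes of which 0 were among the 32. The median log2 fold change was -0.05, beside 0.01 over all genes. Tdo2 had the smallest p, with 1.64 and 1.27 CPM in IUGR and 0.963 and 0.628 CPM in NS, a difference of 0.87 ± 0.5 from 11 to 29 counts per library (unadjusted p = 0.127, adjusted p = 1 in edgeR). Rgs14 was lower, with 1.47 and 2.65 CPM in IUGR and 4.13 and 3.14 CPM in NS, and differed by -0.82 ± 0.62. Neither difference passed the test, although the libraries of the groups did not overlap.

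Plk5 had 2.21 and 3.25 CPM in IUGR and 3.92 and 4.11 CPM in NS at day 3, a difference of -0.56 ± 0.49. Wfs1 had 6.63 and 9.7 CPM in IUGR and 13.3 and 12.4 CPM in NS, a difference of -0.66 ± 0.73. Without overlap between groups, 6 of the 32 were lower in IUGR (Lct, Plk5, Wfs1, Rgs14, Nptx1 and Fam163b), beside 16.6% of all genes, and 2 were higher (Tdo2 and Amigo2), beside 19.7%. The 5 meninges and fibroblast genes were also lower in IUGR without overlap at this age, and the sum of the thalamus and habenula genes was highest in IUGR replicate 2, at 350 CPM; the part of either in these differences was not tested. Rasgrp1 had 36.5 and 45.9 CPM in IUGR and 42.6 and 56.4 CPM in NS, a difference of -0.27 ± 0.25. C1ql3 had 7.88 and 12.9 CPM in IUGR and 8.39 and 7.19 CPM in NS, a difference of 0.41 ± 0.4. Groups overlapped for both, as they did for C1ql2, with 0.454 and 4.3 CPM in IUGR and 2.27 and 0.685 CPM in NS (0.7 ± 1.1).

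The IUGR difference itself was not shown to change with age. By edgeR, 0 of the 32 genes were called for the difference between ages, where 0% of all genes tested were called, and 0 had an unadjusted p under 0.05, beside 0.513% of all genes; DESeq2 and limma voom called 0 of the 32. The smallest p belonged to Rasgrp1, whose IUGR difference was 0.25 ± 0.25 at week 8 and -0.27 ± 0.25 at day 3, a change of 0.51 ± 0.36 (adjusted p = 1 in edgeR). For Rgs14 the change was 0.95 ± 0.84, for Calb1 0.51 ± 0.46, for Plk5 0.64 ± 0.68, for Stxbp6 0.43 ± 0.43 and for Tdo2 -0.69 ± 0.66.

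At week 8 the replicates of a group lay far apart for many of the genes. Replicate 2 exceeded replicate 1 by more than 2-fold in both IUGR and NS for 13 of the 32 genes (40.6%), beside 9.07% of all genes tested, and fell below it by more than 2-fold for 2 (6.25%), beside 10.3%. Fam163b had 29.6 and 234 CPM in IUGR and 27.5 and 145 CPM in NS. Trpc6 ran the other way, with 101 and 10.8 CPM in IUGR and 81.6 and 14.5 CPM in NS, as did Zbtb20, with 45.8 and 15.8 CPM in IUGR and 72.3 and 18.6 CPM in NS. Genes of the same field went in opposite directions: among dentate genes Dsp was higher and Trpc6 lower in replicate 2. Rasgrp1, Stxbp6 and Man1a were among those with the smallest differences between replicates. These libraries also differ in Rpph1, as given above, and in the long non-coding RNA Malat1, which had 7105 and 1214 CPM in IUGR and 9146 and 981 CPM in NS; the part of either in the members' values was not tested.

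**Figure D5:**
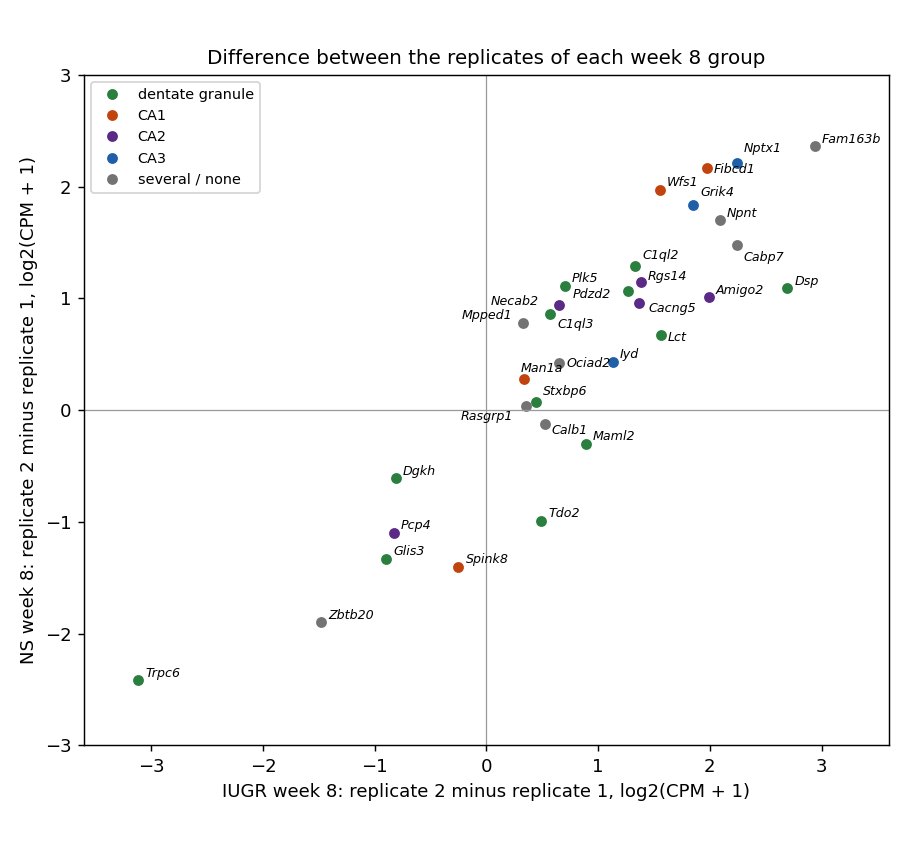
Difference between replicate 2 and replicate 1 at week 8, as log2(CPM + 1), in IUGR (horizontal axis) and NS (vertical axis), with 1 point for each of the 32 genes coloured by field. Most points lie at the upper right, with Fam163b farthest, and Trpc6 and Zbtb20 lie at the lower left.

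Without both week 8 replicate 1 libraries, 26 of the 32 genes were called for week 8 against day 3 in IUGR and 27 in NS, where 9221 and 9520 of the 15999 genes tested were called. Without both week 8 replicate 2 libraries, 21 were called in IUGR and 25 in NS, where 6778 and 6201 of all genes were called, and the median log2 fold change was 1.7 in IUGR and 1.56 in NS. In these fits each week 8 group held 1 library, so the spread came from the day 3 libraries, whose replicates lay closer together, and the higher counts say nothing of the members in particular.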

How the data were processed

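Total RNA was extracted with Trizol, depleted of ribosomal RNA and sequenced in paired ends, per the labels' protocols. The authors deposited raw counts per gene for each age (24421 genes in each of 2 tables), which all tests used, with a gene length, used only for levels per kilobase. Tools listed in the submitters' processing notes are featureCounts 1.6.1, HISAT2 2.1.0, cutadapt 1.16, SAMtools 1.9 and DESeq2 1.26.0, with the build mm10. The annotation and strand setting of the counting were not given in the sources used here, so counts of genes with overlapping exons are uncertain. The authors' normalized tables were not used.

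Counts of all 8 libraries were fitted as 4 group means with edgeR 4.0.16 (R 4.3.3), TMM scaling and filterByExpr at its defaults, which kept 15999 genes. The quasi-likelihood F test was used with Benjamini-Hochberg adjustment over all of them and a threshold of 0.05. A standard error is the log2 fold change divided by the square root of F. The replicate number was not a block, since no label says that it marks a shared animal, litter or batch. The chi-square over genes per degree of freedom between replicates was 16 to 18.8 at day 3 and 248.8 to 317.7 at week 8, so no library was entered more than once. A count of 0 allows up to 3 counts, or 0.158 to 0.23 CPM, and this covers counting error only.

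The members, their grouping and all lists were chosen with earlier results of these data known, so no list was tested. The members were described by counts and medians beside those of all genes. Values in every library were given for the called members with the largest rises in NS (up to 6), for the 6 with the smallest p in each IUGR comparison, and for C1ql2 and C1ql3; members given in addition were chosen after their values were seen. Alternatives were RLE and upper-quartile scaling, no count filter, a mean count of 10 or more, an absolute log2 change of 1 or more, limma 3.58.1 voom, DESeq2 1.42.0, each age alone, the replicate number as a block, and each library left out. Leaving out pairs of week 8 or day 3 libraries was added after seeing the data. A list of other CA1 genes is not reported here. The scripts were tested on simulated data. Positions are of overlapping exons are from the GENCODE annotation of GRCm38 and promoter sequences from RefSeq on GRCm38.p6.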

Additional observations from a re-analysis of the deposited data

How the results depend on the processing

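No member was called for IUGR against NS at either age, or for the difference between ages, under any alternative run. For week 8 against day 3 the main edgeR fit called 2691 of all genes in IUGR and 2263 in NS. Member counts called under other scaling and other filters were 15 in IUGR (2467 to 2742 of all genes) and 14 to 15 in NS (2068 to 2313). With the minimum fold they were 15 and 14, and all genes were not counted at that fold. They were 22 in IUGR (4581 of all genes) and 21 in NS (4116) with DESeq2, and 14 (2650) and 12 (2291) with limma voom. With each library left out in turn they ranged from 1 to 19 in IUGR (92 to 4069 of all genes) and from 0 to 17 in NS (51 to 3801 of all genes). Beyond a group's own day 3 libraries, 8 were called in IUGR without IUGR week 8 replicate 2 (914 of all genes), 8 in NS without NS week 8 replicate 2 (1315), 9 in IUGR without either NS day 3 library (1040 and 1054), and 9 in NS without either IUGR day 3 library (822 and 824); the spread of a lone library was then taken from the other groups. The medians ranged from 1.69 to 2.53 in IUGR, from 1.56 to 2.43 in NS, from -0.35 to 0.58 for IUGR against NS at week 8 and, around 0.25, from -0.44 to 0.53 for the difference between ages. With both day 3 replicate 2 libraries left out the counts were 0 in IUGR and 0 in NS; with both week 8 replicate 1 libraries out, 26 and 27 (9221 and 9520 of all genes); with both week 8 replicate 2 libraries out, 21 in IUGR and 25 in NS (6778 and 6201), with medians of 1.7 in IUGR and 1.56 in NS. The cause was not tested.

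At week 8 the replicate number marked a split shared by IUGR and NS. Differences between replicates correlated between the treatments at 0.818 over all genes and 0.894 over the 32 members, and Rpph1 and Malat1 split the same way. At day 3 these correlations were -0.0652 and -0.571, although both replicate 2 libraries held the high Xist counts. No label says what the replicate number marks. The main fit does not use it, so the week 8 split counts there as spread within groups. With the replicate block, 25 members were called in IUGR and 24 in NS (8061 and 7667 of all genes), and with the pairing crossed at day 3, 25 and 26 (8392 and 8053 of all genes). For IUGR against NS the block called 0 members and 0 of all genes at either age, and likewise for the difference between ages. At an unadjusted p under 0.05 it had 5 members at week 8, 3 at day 3 and 6 for the difference between ages. Without the block there were 0 in each. The share of all genes at that threshold with the block is not given here, so these counts say nothing of the members in particular.

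Among called rises, values with a library left out ranged in IUGR from 3.92 to 7.12 for C1ql2, 2.37 to 5.4 for Dsp, 3.77 to 6.02 for Nptx1, 4.64 to 6.91 for Cabp7, 4.63 to 6.25 for Lct and 2.59 to 4.17 for Wfs1, and in NS from 4.36 to 6.25 for C1ql2, 2.48 to 4.68 for Fibcd1, 3.28 to 5.52 for Nptx1, 4.95 to 6.46 for Cabp7, 4.92 to 6.34 for Spink8 and 1.19 to 2.4 for Plk5. Signs changed for members near 0. Zbtb20 in NS (0.03 for week 8 against day 3) was -0.01 with upper-quartile scaling, -0.25 with limma voom and -0.21 with the replicate block. With a library left out, values for week 8 against day 3 in IUGR ranged from -1.33 to 0.21 for Zbtb20, -0.31 to 0.53 for Pcp4, -0.46 to 0.83 for Pdzd2, -0.87 to 0.31 for Mpped1, -0.5 to 0.99 for Cacng5, -0.62 to 1.58 for Npnt and -0.22 to 0.6 for Dgkh. In NS they ranged from -1.25 to 0.69 for Zbtb20, -0.83 to 0.27 for Pcp4, -0.75 to 0.46 for Pdzd2, -0.84 to 0.01 for Mpped1, -0.24 to 0.82 for Cacng5 and -0.76 to 1.05 for Npnt. For IUGR against NS at week 8 they ranged from -0.04 to 1.09 for Pcp4, -0.13 to 0.78 for Maml2 and -0.21 to 1.25 for Pdzd2. Members with few counts at day 3, such as Lct (10 to 14 counts), give imprecise differences there.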
